A study of Mus musculus with 6 samples.

Results

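The genes described here encode the proteins of the cytosolic ribosome, measured in mouse embryonic stem cells that carry a hairpin against Jmjd1c or a control hairpin. They were taken from the array by symbol: probe sets whose only annotated symbol starts with Rpl or Rps and a digit, or is Rpsa, Rplp0, Rplp1 or Rplp2. Kinases named Rps6k, Rps19bp1 and pseudogene symbols were left out. This gave 105 probe sets of 49 genes, 26 of the large (60S-type) and 23 of the small (40S-type) subunit, among 18193 genes with a probe set of their own. Each gene was represented by its brightest probe set, judged by the mean of all 6 arrays, which set 56 others aside. A further 31 ribosomal protein genes, among them Rpl5, Rpl10 and Rplp1, appear only on probe sets annotated with several symbols and are not members. Of the 49, 48 passed the filter on dim probe sets and were tested among 12684 genes. Rps16 did not pass, with 1.65 and 12.1 signal units on the control arrays and 1.42 to 5.70 on the knockdown arrays.

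J1 is a line of mouse embryonic stem cells, grown here on gelatin in medium with 15% serum and leukemia inhibitory factor at 1000 U/ml, the cytokine that keeps such cells undifferentiated. All cells had received pLKO.1 lentivirus with a short hairpin RNA: a non-targeting one (shNT-pLKO.1, the control), shJmjd1c#3-pLKO.1 (sh3) or shJmjd1c#4-pLKO.1 (sh4). Jmjd1c encodes a protein of the JmjC histone demethylase family. Puromycin at 1.5 ug/ml was added 1 day after infection for 2 days, so all groups are selected pools that carry an integrated vector, and cells were replated and grown for 4 days before 6 ug of total RNA was labelled for an Affymetrix Mouse Genome 430 2.0 array. Each of the 3 groups had 2 arrays, described as biological duplicates.

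A ribosome holds a copy of each of nearly all ribosomal proteins, bound to ribosomal RNA, and the cell makes these proteins in matched amounts. Their mRNAs are among the most abundant in growing cells. They start with a run of pyrimidines, the 5′ terminal oligopyrimidine (TOP) motif, through which mTORC1 and LARP1 control their translation, so protein output can change without a change in mRNA. Several ribosomal proteins also act outside the ribosome, for example by binding Mdm2, the ubiquitin ligase of p53.

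Promoter sequence shows what these genes share at their start sites. A window of 300 bases, from 250 before to 50 after the annotated start, was matched by symbol for 43 of the 49 genes in RefSeq's mouse annotation (GRCm38.p6). The 60 bases from 40 before to 20 after the start are printed for members whose values are described at length. Capitals mark the longest unbroken run of C and T within the stretch from 10 bases before to 20 bases after the start. A run that crosses the edge of that stretch was counted only for its part inside, in members and in all genes alike.
Rpl22l1: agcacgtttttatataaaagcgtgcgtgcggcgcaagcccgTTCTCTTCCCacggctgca
Rpl37: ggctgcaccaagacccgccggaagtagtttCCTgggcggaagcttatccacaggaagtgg
Rplp2: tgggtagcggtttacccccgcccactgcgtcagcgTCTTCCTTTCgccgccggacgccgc
Rpl38: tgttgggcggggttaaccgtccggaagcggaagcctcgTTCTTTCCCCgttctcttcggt
Rpsa: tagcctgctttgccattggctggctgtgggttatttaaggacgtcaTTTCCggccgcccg
Rps6: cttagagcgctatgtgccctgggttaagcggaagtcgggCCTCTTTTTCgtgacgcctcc
Rps25: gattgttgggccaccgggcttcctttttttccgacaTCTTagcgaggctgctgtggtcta
Rps27: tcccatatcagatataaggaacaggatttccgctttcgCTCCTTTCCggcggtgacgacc
They lie at chr3:28805468-28805527 (plus strand), chr15:5116573-5116632 (plus strand), chr7:141447611-141447670 (plus strand), chr11:114668540-114668599 (plus strand), chr9:120127726-120127785 (plus strand), chr4:86857348-86857407 (minus strand), chr9:44407674-44407733 (plus strand) and chr3:90213629-90213688 (minus strand), and each is written 5′ to 3′ along its gene.

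The run was 10 bases long in Rpl22l1, Rplp2, Rpl38 and Rps6, 9 in Rps27, 5 in Rpsa, 4 in Rps25 and 3 in Rpl37, where the edge cut it. Over the 43 genes its median length was 7 bases, against 5 over the 27025 genes of the promoter table, taking the longest where a gene had several starts. Runs of 8 or more bases stood in 17 members (39.5%) and in 13.0% of all genes. The annotated first transcribed base was C, the usual first base of a TOP mRNA, in 15 members (34.9%) and in 18.9% of all genes. Within the whole 300-base window, CGGAAG (the core of ETS-family sites) was found on either strand in 30 members (69.8%) and in 18.8% of all genes. ATGGCG (part of the YY1 site) was found on either strand in 16 (37.2%) and in 10.2%. CTTTCC, searched on the coding strand and able to lie inside a pyrimidine run, was found in 17 (39.5%) and in 16%. The table of all genes also holds non-coding genes, and a match is a description of letters. Both subunits showed this: CGGAAG was in 15 of 24 large-subunit and 15 of 19 small-subunit promoters.

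Some facts of the whole set of arrays bear on what follows. The brightest of 3 Jmjd1c probe sets had signals of 6060 and 5516 in shNT, 4541 and 4984 in sh3, and 3274 and 4215 in sh4, a log2 difference of -0.46 (limma, Benjamini-Hochberg adjusted p = 0.256). The 2 dimmer ones were higher in the knockdown groups by 0.73 and 0.90 (adjusted p = 0.354 and 0.0789), so the probe sets differ in direction and groups are named by their labels. All 12 embryonic stem cell markers passed the filter, with a summed signal of 118824 and 142742 in shNT and 100713 to 115995 in the knockdown groups. Of 22 feeder fibroblast markers with a probe set, 14 passed the filter. The summed signal of the 22 was 13297 and 15261 in shNT and 12900 to 14935 in the knockdown groups. Gene by gene, 11 of the 14 tested were higher in the knockdown mean (median 0.36). At an unadjusted p under 0.05 there were 6 higher and 0 lower, against 12.3% of all genes. Limma called 1 higher in the knockdown mean, against 0.725% of all genes, and 2 higher in sh4, against 0.363%. The part of these markers in the results was not tested. Array medians ranged from 69.2 to 81.0 signal units. Actb probe sets at the 3′ and 5′ ends of the transcript, whose ratio tracks RNA integrity, gave ratios of 2.70 and 2.77 in shNT, 2.26 and 2.40 in sh3, and 2.80 and 2.81 in sh4. The same ratio for Gapdh was 1.38 and 1.68 in shNT, 1.30 and 1.47 in sh3, and 1.33 and 1.49 in sh4. For Gapdh it was highest on shNT replicate 2 and lowest on sh3 replicate 1. The part of RNA integrity in the results was not tested. In RNA from whole cultures, fewer cells of a type and less RNA per cell cannot be told apart.

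The first question was whether the mRNAs of ribosomal proteins differed between cells with either Jmjd1c hairpin and control cells. None of the 48 genes tested rose or fell: limma with Benjamini-Hochberg adjustment over all genes called 0 of 48, where it called 0.725% of all genes tested. At an unadjusted p under 0.05 there were 2, both lower (Rpl22l1 and Rps25), against 12.3% of all genes. The log2 difference of the knockdown mean was negative for 40 members and positive for 8, with a median of -0.116 and a range of -0.52 to 0.32. Over all genes tested the median was 0.011. The large subunit had 20 negative and 6 positive values with a median of -0.113, and the small subunit 20 negative and 2 positive with a median of -0.138. All 4 knockdown arrays lay below both control arrays for 2 members (4.17%), against 9.54% of all genes, and above both for 1, against 11.2% of all genes.

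The sign of the median depended on 1 control array. Without shNT replicate 2 it was 0.077, with 43 members positive and 5 negative, and without shNT replicate 1 it was -0.307, with 42 negative. Scaling moved it as well. After quantile normalization 22 members were positive and 26 negative (median -0.015, all genes 0.001). Median centring gave 6 and 42 (median -0.191, all genes -0.064). It shifts every gene alike and leaves the members where they were relative to all genes.

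**Figure D1:**
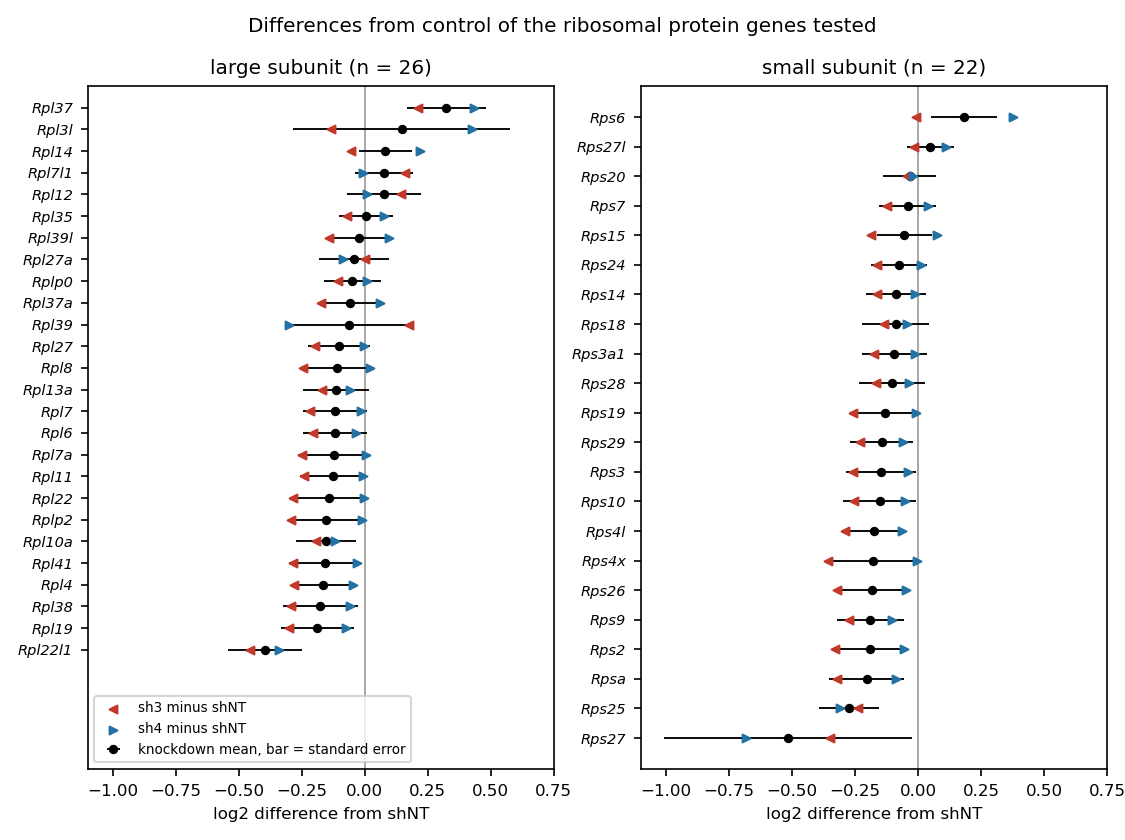
Log2 difference from shNT (horizontal axis) of each ribosomal protein gene tested, large subunit on the left and small on the right. Black points are the knockdown mean with its standard error, red triangles sh3 and blue triangles sh4 (2 arrays a group); Rpl22l1 and Rps27 lie lowest, Rpl37 and Rps6 highest.

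Each hairpin was also set against the same 2 control arrays. In sh3, 43 members were negative and 5 positive with a median of -0.202 (all genes 0.007). None was called by limma, against 0.071% of all genes, and 1 member, Rpl22l1, had an unadjusted p under 0.05, with the lower value in sh3, against 9.74%. With the replicate number as a block, described with Rpl22l1, 4 members were called in sh3. In sh4, 33 were negative and 15 positive with a median of -0.015 (all genes 0.017). Again none was called, against 0.363%, and 3 had an unadjusted p under 0.05, against 12.1%: Rpl37 and Rps6 with higher and Rps25 with lower values. These comparisons share their controls.

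In the direct comparison of the hairpins the log2 difference uses no control array, while its standard error and p-value rest on all 6 arrays. Of the 48 members, 42 had the higher value in sh4 and 6 in sh3, with a median log2 difference (sh4 minus sh3) of 0.204 against 0.010 over all genes. Limma called 0 of 48, and 0% of all genes. At an unadjusted p under 0.05 there were 2 members, both higher in sh4 (Rps6 and Rpl14), against 6.1% of all genes, and the smallest adjusted p was 0.789. The lowest values were those of Rpl39 (-0.48), Rps27 (-0.33) and Rpl7l1 (-0.17), and the highest those of Rps4x (0.35), Rps6 (0.38) and Rpl3l (0.56). Scaling the arrays to the cre hybridization controls, described next, brought the median to -0.000071 where all genes had -0.194.

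Most members shifted together from array to array. For 37 of the 48 the mean signal was 10000 or more, a bound chosen after the values were seen, and these 37 are called the bright members. Their median log2 level, relative to each gene's own mean over 6 arrays, was -0.11 and 0.28 in shNT, -0.22 and -0.05 in sh3, and -0.02 and 0.13 in sh4 (replicates 1 and 2). All 37 were above their own mean on shNT replicate 2, 36 on sh4 replicate 2, 13 on sh4 replicate 1, 3 on sh3 replicate 2, 1 on shNT replicate 1 and 0 on sh3 replicate 1. Replicate 2 exceeded replicate 1 for 37 of 37 in shNT, by a median of 0.40, for 37 of 37 in sh3, by 0.18, and for 35 of 37 in sh4, by 0.15. The gap between the 2 control arrays was thus larger than the median knockdown difference of these genes, -0.125 (35 negative, 2 positive).

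The same order of arrays was seen in 1 of 4 RNAs that do not come from the cells. Cre, a phage transcript added in fixed amount before hybridization, had a mean signal of 25008 and 33212 in shNT, 23904 and 26292 in sh3, and 27014 and 30807 in sh4. Relative to its mean over the arrays this is -0.14, 0.27, -0.20, -0.07, -0.03 and 0.17 on the log2 scale. Other genes of 10000 signal units or more, 313 in number, had medians of -0.06, 0.10, -0.12, 0.01, -0.01 and 0.08, while all genes tested lay between -0.02 and 0.03. The other added RNAs, bioB, bioC and bioD, were also highest on shNT replicate 2 (0.18, 0.17 and 0.19), followed by sh4 replicate 2 (0.06, 0.10 and 0.12). They did not share the rest of the order: bioB and bioD were lowest on sh3 replicate 2 (-0.16 and -0.10) and bioC on shNT replicate 1 (-0.10). From replicate 1 to replicate 2 of sh3 they differed by -0.14, -0.0047 and -0.03, where the bright members differed by 0.17 in their median level. With cre made equal on all arrays, an alternative chosen after seeing the data, 20 members were positive and 28 negative in the knockdown mean (median -0.019), and all genes had a median of 0.109; such scaling shifts every gene alike and leaves the members where they were relative to all genes. The part of this array effect in the members' differences was not tested.

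**Figure D2:**
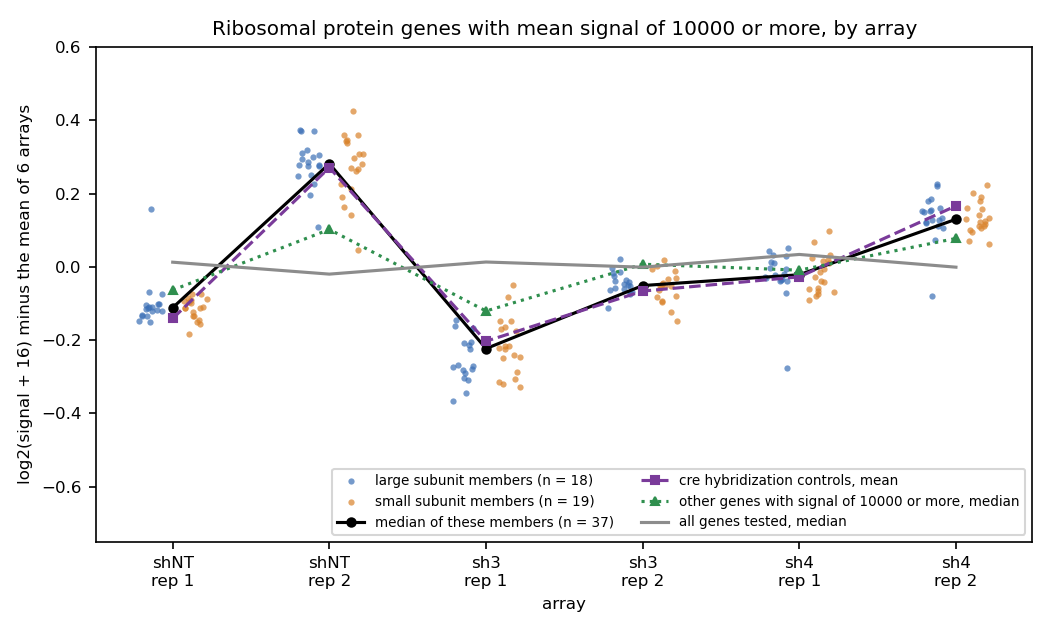
Log2(signal + 16) of the 37 bright members on each array, relative to each gene's mean over the 6 arrays (points; blue large, orange small subunit), with their median in black. Purple squares are the cre hybridization controls and the grey line all genes tested. Green triangles are the median of the 313 other genes of 10000 units or more, not matched to the members in signal. The members and cre are highest on shNT replicate 2 and lowest on sh3 replicate 1.

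The signal of a probe set went with its direction. Among the 105 probe sets, 70 had a mean signal of 10000 or more, and 63 of these were lower in the knockdown mean, with a median of -0.113. Another 30 lay between the filter and 10000, and 21 of these were higher, with a median of 0.094. The remaining 5 were below the filter. A gene can have both kinds: Rps20, a small-subunit protein, read -0.03 on its brightest probe set and 0.43 and 0.46 on 2 dimmer ones. Rps3, which sits at the mRNA entry of the small subunit, read -0.15 on its brightest and 0.07 on a dimmer one. Many of the brightest probe sets carry the suffix _x, _s or _a, which marks probes that match several transcripts. For _x and _s these can be transcripts of related genes or processed pseudogenes, which can then add to the signal. Without such probe sets 25 members could be tested, 13 positive and 12 negative, with a median of 0.072. Of the bright members 15 kept a value, 7 of them negative, but some were then read by much dimmer probe sets. Rpl19 and Rpsa, still read at 28569 and 34874 units, were negative. Rps20 and Rps10, then read at 429 and 444 units, were positive. In members read by another, dimmer probe set, its kind and signal changed together. Probe sets without these suffixes and of 10000 units or more were all negative. They were those of Rpl19 (-0.19), Rpl22 (-0.13), Rpl27 (-0.10), Rplp0 (-0.05), Rps4l (-0.18), Rpsa (-0.20) and Rps15 (-0.46). Dimmer _x, _s or _a probe sets went both ways. Rpl37 (0.32), Rpl41 (0.12), Rps18 (0.24) and Rps20 (0.43) were positive, and Rpl22 (-0.12), Rpl37a (-0.28) and Rps9 (-0.04) negative. The part of kind and of signal was not tested.

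**Figure D3:**
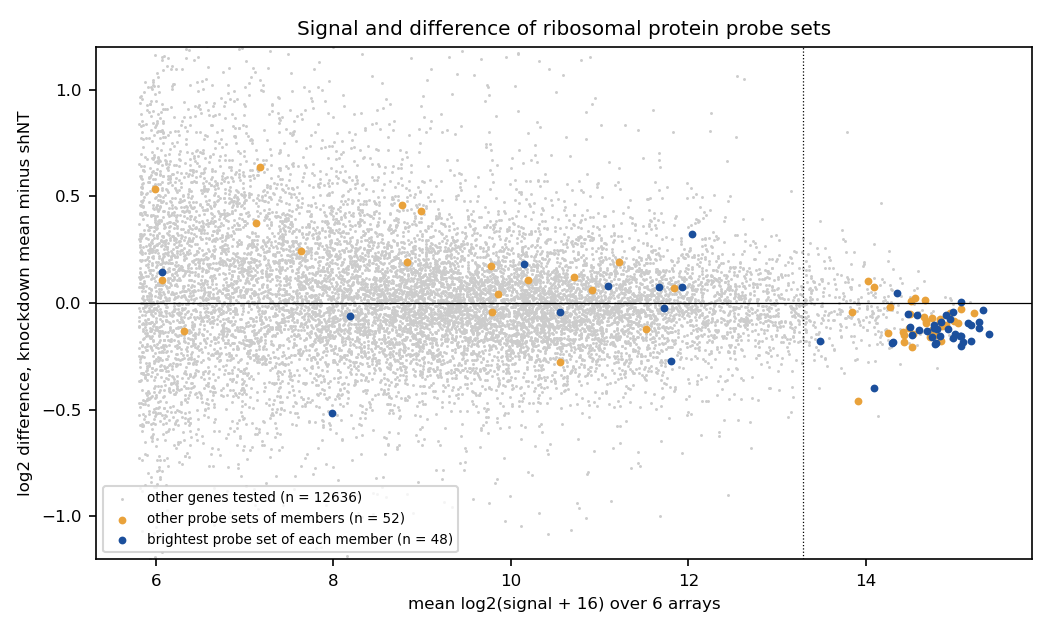
Log2 difference of the knockdown mean from shNT against mean log2(signal + 16) over 6 arrays. Dark blue points are the brightest probe sets of 48 members, orange points 52 other member probe sets and grey points other genes, of which 91 lie outside the plotted range; the dotted line marks a signal of 10000, right of which most member probe sets lie below 0.

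Rpl22l1 stood lowest in the large subunit. It encodes a paralog of Rpl22, an RNA-binding protein of the 60S subunit, and the Rpl22 protein is known to repress Rpl22l1. Its signals were 19382 and 22506 in shNT, 13488 and 17196 in sh3, and 14348 and 18997 in sh4. Every knockdown array was below both controls, the highest of them close to shNT replicate 1. Group means were 20944 ± 2209 (SD, n = 2) in shNT, 15342 ± 2622 in sh3 and 16672 ± 3287 in sh4. The mean fell short of the threshold at -0.40 (SE 0.146, unadjusted p = 0.0237, limma with Benjamini-Hochberg adjusted p = 0.310), a signal 75.9% of control.

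Arrays with the same replicate number deviated together, and with the replicate number as a block Rpl22l1 was called in the knockdown mean (-0.40, SE 0.064, limma adjusted p = 0.00469), in sh3 (-0.46, adjusted p = 0.00697) and in sh4 (-0.34, adjusted p = 0.0244). It was the 1 member called in the knockdown mean, where the block called 5.6% of all genes. In sh3 the block called 4 members, all lower, against 3.43% of all genes: besides Rpl22l1 these were Rps2 (-0.33, adjusted p = 0.0303), Rps26 (-0.32, adjusted p = 0.043) and Rpsa (-0.32, adjusted p = 0.0282). In sh4 it called Rpl22l1 alone, against 4.9%, and in sh4 minus sh3 no member, against 0.418%. At an unadjusted p under 0.05 the block gave 17 of 48 members in the knockdown mean (20.5% of all genes), 30 in sh3 (17.7%), 5 in sh4 (20.1%) and 29 in sh4 minus sh3 (12.9%). Most members shift together by array, so these counts are not of independent genes. The difference of Rpl22l1 kept its direction under each other scaling, filter and probe-set choice that gave it a value (-0.47 to -0.30) and with each array left out (-0.50 to -0.29). It is read by 1 probe set, of the _a kind, so leaving out that kind gave it none.

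Rpl22 itself had signals of 30449 and 40438 in shNT, 27272 and 30396 in sh3, and 31964 and 38369 in sh4. Both sh3 arrays lay below the other 4, replicate 2 by little, and sh4 overlapped shNT. Its difference was -0.14, near the median of the bright members. A ratio of both probe sets within an array is free of a scaling factor common to that array, but not of shifts that differ between probe sets. Its absolute size has no meaning. The log2 ratio of Rpl22l1 to Rpl22 was -0.65 and -0.85 in shNT, -1.02 and -0.82 in sh3, and -1.16 and -1.01 in sh4. The mean ratio was lower by 0.25 in the knockdown arrays, yet sh3 replicate 2 lay above shNT replicate 2, so the groups overlap.

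Rpl37 stood highest in the large subunit. It encodes a zinc-binding protein of the 60S subunit. Signals were 4004 and 3279 in shNT, 4241 and 4148 in sh3, and 5957 and 4033 in sh4. All 4 knockdown arrays lay above both controls, by little except for sh4 replicate 1. Means were 3641 ± 513 (SD, n = 2) in shNT, 4194 ± 65.6 in sh3 and 4995 ± 1360 in sh4. The difference was 0.32 (SE 0.157, limma adjusted p = 0.455) in the knockdown mean, 0.21 in sh3 and 0.43 in sh4. Its probe set is of the _x kind, and without that kind Rpl37 has no value.

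**Figure D4:**
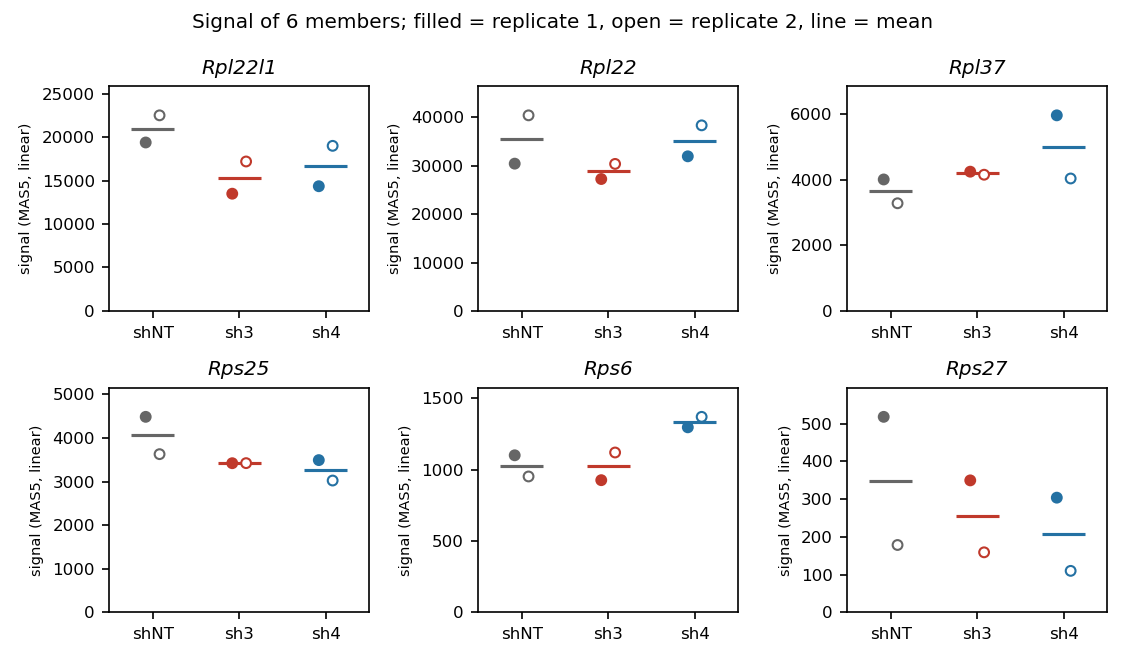
Array signal (linear MAS5 units, axes from 0) of 6 members in shNT, sh3 and sh4; filled points are replicate 1, open points replicate 2, and lines the means of 2 arrays. The knockdown points of Rpl22l1 and Rps25 lie below both control points and those of Rpl37 above, while for the other 3 genes at least 1 knockdown group overlaps the controls.

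Other large-subunit proteins with low values were Rpl19, a protein at the contact between the subunits (-0.19, SE 0.143), Rpl38, needed for translation of Hox mRNAs in the mouse embryo (-0.18), and Rpl4, which lines the exit tunnel of the nascent chain (-0.16). Rpl38 had signals of 33914 and 48180 in shNT, 30664 and 35409 in sh3, and 36285 and 41515 in sh4. A control array was the highest and the lowest was sh3 replicate 1, the pattern of the bright members. The stalk proteins, which recruit the elongation factors, gave -0.05 for Rplp0 and -0.15 for Rplp2. For Rplp2 the signals were 32099 and 42499 in shNT, 27105 and 33495 in sh3, and 35120 and 38182 in sh4, again with overlapping groups. Rpl11, which binds Mdm2 when free of the ribosome, gave -0.13, and Rpl13a, a translational repressor in interferon-treated myeloid cells, -0.11. Besides Rpl37, the highest values were those of Rpl3l (0.15, SE 0.430), Rpl14 (0.08, SE 0.106) and Rpl7l1 (0.08, SE 0.115), and none of them passed the test.

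In the small subunit Rps25, a protein used by viral internal ribosome entry sites, had signals of 4484 and 3628 in shNT, 3421 and 3422 in sh3, and 3492 and 3023 in sh4. All 4 knockdown arrays lay below both controls, and the gap between the controls exceeded that from the lower control to the sh3 arrays. Means were 4056 ± 605 (SD, n = 2) in shNT, 3422 ± 1.10 in sh3 and 3258 ± 331 in sh4. The difference was -0.27 (SE 0.118, unadjusted p = 0.0457, limma adjusted p = 0.393), a signal 82.7% of control. It kept its sign under every scaling, filter and probe-set choice run and with each array left out, but was never called. Rps25 is below the bright class, and its control arrays run in the opposite order to the bright members, replicate 1 above replicate 2.

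Rps6, the substrate of S6 kinase downstream of mTORC1, had signals of 1099 and 951 in shNT, 925 and 1119 in sh3, and 1295 and 1369 in sh4. Both sh4 arrays lay above all other arrays. The difference was -0.01 in sh3 and 0.38 in sh4, and 0.38 in sh4 minus sh3 (SE 0.151, unadjusted p = 0.0321, limma adjusted p = 0.789). Its second probe set was below the filter.

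Rps27, a zinc-finger protein, had the lowest value of the small subunit, -0.52 (SE 0.492, limma adjusted p = 0.746). The arrays read 518 and 179 (shNT), 350 and 159 (sh3), and 304 and 110 (sh4). Within each group replicate 1 was well above replicate 2, so the spread between replicates was larger than the difference, and leaving out an array moved it between -1.24 and 0.21.

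Rpsa, a small-subunit protein first described as a laminin receptor, had signals of 32429 and 44227 in shNT, 27613 and 33251 in sh3, and 32377 and 39345 in sh4. Groups overlap, with a difference of -0.20 (SE 0.149, limma adjusted p = 0.650). Rps2 and Rps9, which help to set the accuracy of decoding, both gave -0.19. Rps19 and Rps24, genes mutated in Diamond-Blackfan anaemia, gave -0.13 and -0.08, and Rps14, whose loss underlies the anaemia of the 5q- syndrome, -0.09. The highest values after Rps6 were those of Rps27l (0.05), Rps20 (-0.03) and Rps7 (-0.04), a protein that binds Mdm2.

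The paralogs of core ribosomal proteins did not share a direction. Rpl22l1 apart, the X-linked Rps4x and its autosomal copy Rps4l gave -0.18 and -0.18, and Rps27l, a p53 target, 0.05. Rpl39l, best known from male germ cells, gave -0.02, with signals of 3372 and 3460 in shNT, 2860 and 3345 in sh3, and 3473 and 3846 in sh4, so both sh3 arrays lay below and both sh4 arrays above the controls. Rpl3l, a form of striated muscle, was near the filter with signals of 41.8 and 52.3 in shNT and 17.4 to 82.1 in the knockdown groups, so its value carries little information. Fau, which encodes the small-subunit protein Rps30 fused to a ubiquitin-like protein, is no member by its symbol and gave -0.19, with -0.33 in sh3. In sh3 its unadjusted p was under 0.05 (limma adjusted p = 0.507), as for 9.74% of all genes. With the replicate block Fau was called lower in sh3, where the block called 3.43% of all genes.

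The precision of 2 arrays a group bounds these statements. For the 37 bright members the standard error of the knockdown mean was 0.0933 to 0.160, and the 95% limma intervals, each taken alone, ran from -0.727 at the lowest to 0.260 at the highest. Among these 37 only the interval of Rpl22l1 lay on 1 side of 0. For the 11 dimmer members the intervals ran from -1.63 to 1.12, with median limits of -0.264 and 0.408. The interval of Rps25 (-0.540 to -0.00655) lay below 0.

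Genes that make and use the ribosome were described from lists. The shares of all genes to set beside their counts in the knockdown mean are 12.3% at an unadjusted p under 0.05 and 5.6% called with the block. Of 86 tested assembly and rRNA processing genes limma called 0, with a median of 0.015 in the knockdown mean. Those with the smallest p were Wdr3 (0.39) and Noc3l (0.48), nucleolar factors of small- and large-subunit assembly, with Rrp12 (0.34) and Rrp1b (0.23). At an unadjusted p under 0.05 there were 4 higher and 2 lower, and with the replicate block Wdr3 alone was called (adjusted p = 0.0282). Of 18 RNA polymerase I genes 0 were called with or without the block, and 0 had an unadjusted p under 0.05 (median -0.007), with Polr1e (0.26), Taf1d (0.37), Polr2f (0.22) and the terminator Ttf1 (-0.28) smallest in p. The probe sets for 18S rRNA, which oligo-dT labelling picks up only in part, had signals of 6875 to 12292 in shNT, 5333 to 9437 in sh3 and 3712 to 5953 in sh4.

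Of 15 tested elongation factors and other TOP mRNAs limma called 0, and 14 had a negative value, with a median of -0.105. None had an unadjusted p under 0.05 or was called with the block. Examples are Eef2, the translocase (-0.21), Eef1d (-0.16) and Eef1a1, which delivers tRNA (-0.17), while Nap1l1, a histone chaperone, gave 0.16. Of 31 initiation factors limma called 0, with 0 at an unadjusted p under 0.05 and Eif4a2 called with the block (adjusted p = 0.0335; median of the list -0.031), with Eif2b2 at 0.21, Eif4g3 at 0.37, Eif4a2 at -0.27 and Eif3c at -0.20. Of 20 regulators in mTORC1, Myc and TOP control 0 were called with or without the block, and 1 was higher and 1 lower at an unadjusted p under 0.05 (median -0.010), with Larp4 at 0.26, the Eif4a inhibitor Pdcd4 at -0.33, Mga at -0.21 and Eif4ebp2 at 0.20. Of 20 p53 targets 0 were called with or without the block, and 2 were higher and 2 lower at an unadjusted p under 0.05 (median -0.058), with Ei24 at -0.26, Gadd45a at 0.30, Mdm4 at -0.32 and Btg2 at 0.51.

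The proteins of the mitochondrial ribosome are made in the cytosol from nuclear genes and form a separate particle. Limma called 0 of 76 tested, with a median of 0.025, where 2 were higher and 1 lower at an unadjusted p under 0.05 and Mrpl33 was called with the block (adjusted p = 0.0083). Mrpl33 (0.53), Mrpl34 (0.36), Mrps2 (-0.30) and Mrps30 (-0.22) had the smallest p. Their median level by array lay between -0.04 and 0.07, without the rise of the bright members on shNT replicate 2, where it was 0.01. The 11 cytosolic members below 10000 units lacked that rise too, with 0.02 there and -0.02 to 0.13 over the arrays. The 313 other genes of 10000 units or more stood at 0.10 there. Lack of the rise is thus not particular to the mitochondrial ribosome.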

How the data were processed

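Total RNA of 6 cultures was hybridized to 1 array each. The deposited values are signal intensity on a linear scale, which the authors made with MAS5, as the submitters' processing notes name it. Its version is not given in these sources. Every array had a trimmed mean of 500.003, so the values were already scaled and were used as they stand. Of 45101 probe sets, 34945 had 1 symbol, 932 several and 9160 none, besides 64 controls; symbols come from the platform annotation. Signals became log2(signal + 16), which understates changes of dim genes. The brightest probe set stood for a gene, and a filter at the 40th percentile (log2 5.81, signal 40.1) left 12684 of 18193 genes for testing. Limma 3.58.1 in R 4.3.3 was fitted with 1 mean for each of the 3 groups (residual df 3, prior df 5.96) with an intensity trend, 2-sided, with Benjamini-Hochberg adjustment at 0.05 over all genes; Jmjd1c probe sets were fitted over all probe sets above the filter. The fit was tested on simulated data. The words rose and fell are kept for genes past that threshold.

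The titles number the replicates without naming a common day. After subtracting group means, arrays with the same number correlated at 0.302, 0.223 and 0.300 across genes, so the numbers were taken to pair the arrays, an inference from these same values. P-values set a difference against the spread between these cultures, which limma draws towards the spread of genes of similar signal.

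Members, lists and tests were chosen with earlier results of these data known. Named genes are the extremes of each subunit, those with the smallest p, members of known role, the paralogs, and for each list up to 4 genes with the smallest p. Alternatives covered the pseudocount, filter, scaling, choice of probe set, trend, block and each array left out.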

Additional observations from a re-analysis of the deposited data

How the results depend on the processing

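The spread between replicates of the members' median was 0.179, and leaving out probe-set kinds or scaling to cre moved it by more in the comparisons named here. Without _x, _s and _a probe sets it was 0.072 in the knockdown mean, -0.0071 in sh3 and, for the small subunit in the knockdown mean, 0.122. That choice also put dimmer probe sets in place of bright ones for some members. Scaling to the cre controls, chosen after seeing the data as was cyclic loess, gave -0.0026 in sh3 and -0.000071 in sh4 minus sh3. Leaving out each array in turn gave -0.307 to 0.077 in the knockdown mean, -0.381 to -0.044 in sh3, -0.209 to 0.175 in sh4 and 0.115 to 0.272 in sh4 minus sh3, with -0.301 to 0.072 for the large and -0.307 to 0.079 for the small subunit. In each comparison 0 to 0 members were called with an array left out. The replicate block called 1 member in the knockdown mean, 4 in sh3 and 1 in sh4, and changed no other call of a member; it called 710 of all genes in the knockdown mean, against 92 without it. Reversed values of the knockdown mean were, after quantile normalization, Rplp0 0.023, Rps14 0.037, Rps20 0.078, Rps24 0.046 and Rps7 0.081. After cre scaling they were Rpl39 0.035, Rpl39l 0.075, Rplp0 0.048, Rps14 0.011, Rps20 0.065, Rps24 0.022 and Rps7 0.057, where every gene moved by the same amount, so this does not set members apart. Median centring, which also moves every gene by the same amount, gave Rps27l -0.026, and cyclic loess Rps20 0.010. Averaging the probe sets of a gene gave Rps20 0.203, Rps24 0.075 and Rps3 0.037. Without _x, _s and _a probe sets the values were Rps20 0.459, Rps24 0.191, Rps3 0.072 and Rps9 0.172, and without _x alone Rps20 0.432, Rps24 0.191 and Rps27l -0.017. With each array left out in turn the large-subunit genes Rpl11 -0.318 to 0.068, Rpl13a -0.325 to 0.095, Rpl19 -0.433 to 0.057, Rpl38 -0.430 to 0.077, Rpl39 -0.380 to 0.256, Rpl39l -0.079 to 0.034, Rpl3l -0.242 to 0.534, Rpl4 -0.348 to 0.019, Rpl7l1 -0.069 to 0.223, Rplp0 -0.214 to 0.115, Rplp2 -0.355 to 0.049 spanned 0. In the small subunit Rps14 -0.254 to 0.080, Rps19 -0.342 to 0.078, Rps2 -0.406 to 0.021, Rps20 -0.153 to 0.089, Rps24 -0.239 to 0.088, Rps27 -1.244 to 0.212, Rps27l -0.030 to 0.128, Rps3 -0.358 to 0.062, Rps4l -0.367 to 0.014, Rps4x -0.485 to 0.124, Rps7 -0.204 to 0.122, Rps9 -0.410 to 0.032, Rpsa -0.427 to 0.020 did. The cause was not tested. Without shNT replicate 2, 18 of 29 named members reversed; Rpl14, Rpl22l1, Rpl37, Rps25 and Rps6 kept their direction in all alternatives that gave them a value.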

Other observations

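Outside translation, 12 embryonic stem cell, 14 feeder fibroblast, and 9 trophoblast and primitive endoderm markers were tested. Limma with Benjamini-Hochberg adjustment called 2 of these markers in the knockdown mean, both higher, where it called 0.725% of all genes. They were Col3a1, a collagen of fibroblasts (2.01, adjusted p = 0.0336), and Cdx2, the trophectoderm factor (2.47, adjusted p = 0.0361). Of the 9 trophoblast and primitive endoderm markers, Cdx2 among them, 7 were higher and 2 lower. At an unadjusted p under 0.05, 3 were higher and 1 lower, against 12.3% of all genes. The replicate block called 2 higher and 1 lower, against 5.6%. Of the 12 embryonic stem cell markers 0 were called, with a median of -0.300; Klf4 gave -0.55 (adjusted p = 0.128) and Sox2 -0.33 (adjusted p = 0.191). At an unadjusted p under 0.05 there were 4 of 12, all lower, where 12.3% of all genes passed, and the replicate block called 6, all lower, where it called 5.6% of all genes, among them Esrrb (-0.77, adjusted p = 0.000586) and Nanog (-0.40, adjusted p = 0.0151). One probe set of Rps15, not the brightest of that gene, had signals of 15616 and 23088 in shNT, 10738 and 13251 in sh3, and 14883 and 17220 in sh4, a difference of -0.46 where the brightest probe set gave -0.05.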
